A study of Mus musculus with 9 samples.

Results

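Replication-dependent and variant histone genes were examined in the renal cortex of diabetic mice with and without rosiglitazone. The members were all genes whose symbol in the mRNA files begins with Hist1h, Hist2h, Hist3h, Hist4h, H2af or H3f3, which gave 79 of the 21950 mRNA genes. Of these, 68 were replication-dependent histone genes (6 H1, 19 H2A, 18 H2B, 12 H3 and 13 H4 genes) and 11 were variant genes of the H2af and H3f3 families. The control mice were non-diabetic and heterozygous for the db mutation of the leptin receptor (db/m). The dbdb mice were homozygous for db and developed type 2 diabetes, and the dbR mice were homozygous and were given 20 mg/kg/day of rosiglitazone, which activates the nuclear receptor PPARγ. Treatment began at 7 weeks of age and lasted 8 weeks, the dbdb mice received vehicle over the same time, and the cortex was taken at 15 weeks. Whether the control mice received vehicle is not given in the sources used here. All were male mice of the BKS.Cg-Dock7m+/+Leprdb/Nju stock, with the db/m mice taken as littermates, and the db mutation is carried by every cell of the body. Each group had 3 mice and 1 library per mouse. Values are FPKM (fragments per kilobase of transcript, scaled to the mapped fragments of a library), summed over the transcripts of a gene.

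Nucleosomes are built from the core histones H2A, H2B, H3 and H4, and the linker histone H1 binds the DNA between them. The replication-dependent genes lie in clusters, have mostly no introns and are transcribed mainly in S phase, when new DNA has to be packed. Their mRNAs are the only known metazoan mRNAs that usually lack a poly(A) tail. They end instead just after a conserved stem-loop, which is bound by the stem-loop binding protein Slbp and makes the mRNA unstable once replication stops. The variant genes are spread over the genome, mostly carry introns and poly(A) signals, and are transcribed throughout the cell cycle. Their products (H2A.Z, H2A.X, macroH2A and H3.3) replace the canonical histones at particular sites in the chromatin of dividing and resting cells. In a tissue with little cell division such as the adult kidney, replication-dependent genes can also give longer, polyadenylated mRNAs. The libraries were made from RNA depleted of ribosomal RNA, without selection for poly(A), so both forms could be read.

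The stem-loop that defines the class was looked for in the annotated 3′ UTRs (GENCODE M21, GRCm38) on the strand of the gene. The motif was the histone 3′ stem-loop, with a stem of 6 base pairs (G-T pairs allowed) that opens with GG and closes with CC, the pair of T and A next to the loop, and a loop of 4 bases with T at the second place. It was found in 43 of the 59 member genes with an annotated 3′ UTR of at least 16 bases, the length of the motif (72.9%), against 110 of 19896 other genes (0.553%). Replication-dependent genes were 42 of the 43, and the remaining gene was the variant gene H2afx. The sequences below show 1 gene for each stem-loop found, with the stem-loop in capitals and 5 flanking bases on each side in lower case, because among the replication-dependent genes they separate H4 from the other classes by the base pairs of the stem.
Hist1h2ab: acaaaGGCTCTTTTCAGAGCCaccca
Hist1h4c: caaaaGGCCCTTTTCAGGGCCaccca
Hist1h3f: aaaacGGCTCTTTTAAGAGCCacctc
Hist1h4b: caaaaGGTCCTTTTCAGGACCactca
Hist2h4: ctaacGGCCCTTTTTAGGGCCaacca
H2afx: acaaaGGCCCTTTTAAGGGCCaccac
Hist2h2ac: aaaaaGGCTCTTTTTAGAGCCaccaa
The stem-loop of Hist1h2ab was shared by 24 genes of the H1, H2A, H2B and H3 classes, and that of Hist1h4c by 7 genes, all H4. The form of Hist1h3f was found in 6 genes, those of Hist1h4b and Hist2h4 in 2 H4 genes each, and those of H2afx and Hist2h2ac in these genes alone. Of the 79 member genes, 21 had a main transcript that ended within 100 bases of the stem-loop and 22 ran further past it. Another 16 had no stem-loop in the 3′ UTR, and for 20 the annotated 3′ UTR was shorter than 20 bases, so the stem-loop could not be expected in the annotation.

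The replication-dependent genes lay in 4 clusters and 1 place apart. The Hist1 cluster on chromosome 13 held 54 of them, with Hist1h2al alone further along the chromosome (chr13:51202727-51203065), Hist2 on chromosome 3 held 10, Hist3 on chromosome 11 held 2 and Hist4 on chromosome 6 held 1. A main transcript of 1 exon was annotated for 64 of the 68. Many H2A and H2B genes stand head to head, which is shown here by the 248 bases between the start sites of Hist1h2ag, on the minus strand, and Hist1h2bj, on the plus strand (RefSeq, GRCm38.p6, chr13:22042950-22043197, plus strand). CCAAT and its reverse complement ATTGG are in capitals.
Hist1h2ag and Hist1h2bj: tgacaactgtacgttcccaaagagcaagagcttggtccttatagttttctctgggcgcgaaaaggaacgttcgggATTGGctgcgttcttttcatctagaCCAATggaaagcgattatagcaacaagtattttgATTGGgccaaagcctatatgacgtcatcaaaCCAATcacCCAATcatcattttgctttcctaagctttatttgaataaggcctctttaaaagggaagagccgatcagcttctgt
This stretch held 5 of these motifs, 3 as CCAAT and 2 as ATTGG. Among promoters of 300 bases (250 before and 50 after the RefSeq start), 85.3% of the 61 replication-dependent promoters held CCAAT on either strand, against 37.4% of all 32851 promoters. TATAAA on either strand was found in 57.4% of the 61 and in 13.6% of all. Both motifs are textbook elements of core promoters, and the letters alone do not show that a factor binds.

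The libraries held an estimated 26.5 to 32.8 M fragments (M, mega) with a mean length of 235 to 250 bases, as read from the steps between low FPKM values. Mitochondrial genes held 26.9% to 32.8% of the mRNA FPKM. On a transcript of 400 bases, near the length of most histone mRNAs, 1 fragment gave 0.190 to 0.251 FPKM. All 14 listed markers of kidney cortex were detected, led by Slc34a1 at 1146 to 1641 FPKM. Lepr, as a check of the genotype labels, was at 1.05 to 1.23 FPKM in control, 0.304 to 0.652 in dbdb and 0.335 to 0.512 in dbR. Genes with a mean of at least 0.1 FPKM were tested (14537), and a gene was called at an adjusted p under 0.05 by limma with Benjamini-Hochberg adjustment over all of them. Log2 fold changes are on the scale of log2(FPKM + 0.1), which understates the change of low genes. In whole tissue, fewer cells of a type and less RNA per cell cannot be told apart.

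Of the 79 genes, 68 were tested, 60 replication-dependent and 8 variant. The other 11 had means under 0.1 FPKM, and 7 of these (Hist1h2aa, Hist1h2ao, Hist2h2aa2, Hist1h2ba, Hist1h4m, H2afb2 and H2afb3) were listed at 0 in every library. A mean of at least 1 FPKM was reached by 59 genes and at least 10 FPKM by 26. The most abundant was Hist1h4c, an H4 gene, at 985, 739 and 997 FPKM in control, 1307, 1082 and 961 in dbdb and 1026, 1310 and 1236 in dbR. It alone held 29.8% to 38.4% of the FPKM of all histone genes in a library, and the H4 genes together held 50.6% to 62.4%. The next by mean were Hist1h4h with 335, the H3.3 gene H3f3a with 197, the H2B gene Hist1h2bc with 197 and Hist1h4d with 188. Most other members of the H2A, H2B and H3 classes stood under 20 FPKM.

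**Figure D1:**
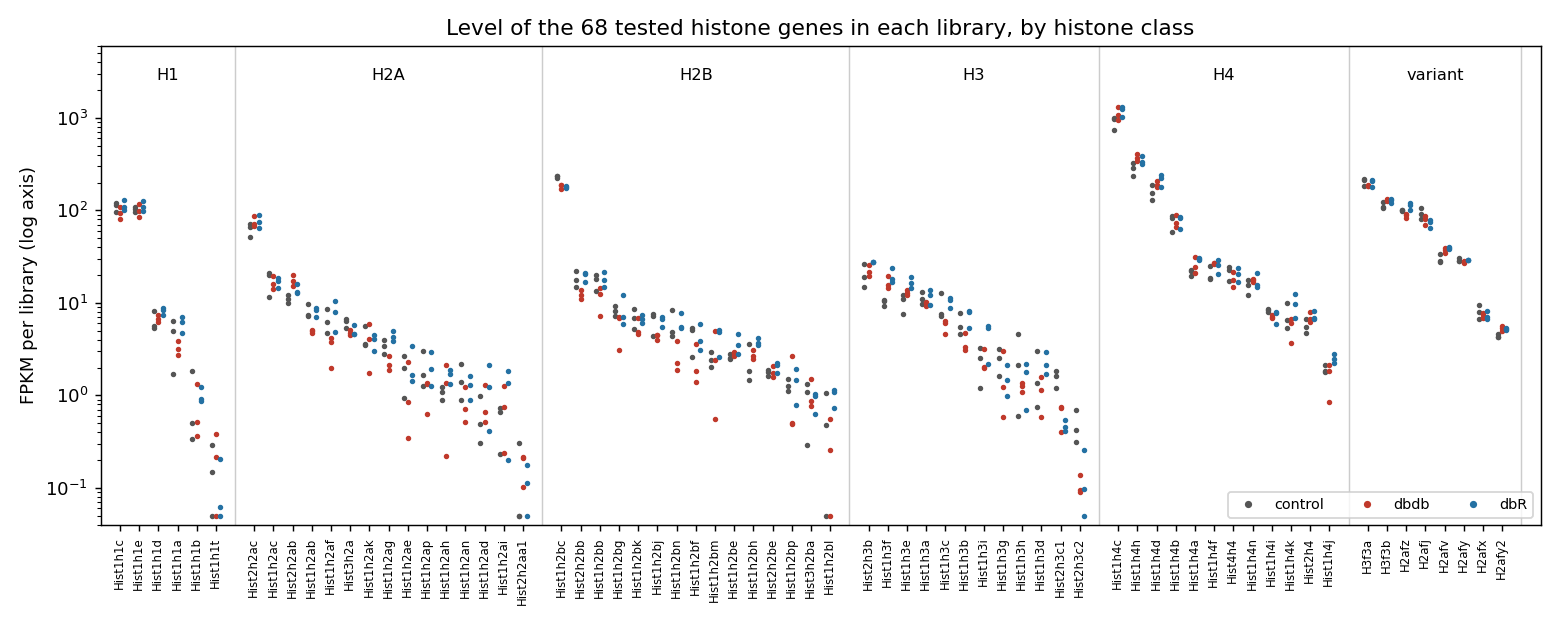
FPKM (log axis) of the 68 tested histone genes in each of the 9 libraries, ordered by mean within each class, with control in grey, dbdb in red and dbR in blue. The 9 values under 0.05 are drawn at 0.05. Hist1h4c stands highest, with 739 to 1310 FPKM, and most H2A, H2B and H3 genes lie under 20.

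In dbdb vs. control, which addresses the effect of diabetes, the histone genes moved in both directions. The abundant H2B gene Hist1h2bc and several low H2A, H2B and H3 genes were downregulated in dbdb, while Hist2h2ab, Hist1h3f, Hist1h4h and the variants H2afv and H2afy2 were upregulated. Of the 68 tested genes, 13 were called, 5 higher and 8 lower, or 19.1%, beside 26.4% of all genes tested. The dbdb libraries all lay above control for 8 members and below for 13, beside 21.2% of all genes in each direction. With mitochondrial genes left out and libraries scaled to the same sum the split was 16 above and 6 below, beside 36.7% and 10% of all genes. The median log2 fold change of the members was -0.20 against -0.0030 over all genes, and with that scaling -0.050 against 0.15.

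Hist1h2bc (ENSMUSG00000018102, chr13:23684199-23692908, plus strand) encodes H2B and its main transcript has 2 exons and no stem-loop in the 3′ UTR. It was at 234, 225 and 234 FPKM in control, 189, 187 and 169 in dbdb and 173, 177 and 182 in dbR. All 3 control libraries lay above all 6 db/db libraries. Its log2 fold change was -0.35 ± 0.06 (SE) in dbdb vs. control (limma, adjusted p = 0.00255).

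Hist1h2ab (ENSMUSG00000061615, chr13:23751126-23751598, plus strand), an H2A gene ending 11 bases after its stem-loop, was at 9.84, 7.30 and 7.43 FPKM in control and at 5.09, 4.78 and 4.95 in dbdb. In dbR it stood at 8.34, 6.99 and 8.77, so the dbdb libraries were the 3 lowest of the 9. The decrease in dbdb was -0.71 ± 0.12 (limma, adjusted p = 0.00290). Hist1h2ag (ENSMUSG00000069301, chr13:22042460-22042944, minus strand), also an H2A gene and the left one of the head-to-head pair printed above, was at 4, 3.40 and 2.77 FPKM in control, 1.87, 2.12 and 2.64 in dbdb and 3.90, 4.98 and 4.32 in dbR. Again the dbdb libraries were the 3 lowest, with a log2 fold change of -0.59 ± 0.16 in dbdb vs. control (limma, adjusted p = 0.0239).

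The H2B gene Hist1h2bn (ENSMUSG00000095217, chr13:21754123-21754503, plus strand) was at 8.30, 4.34 and 4.83 FPKM in control, 2.22, 1.88 and 3.90 in dbdb and 5.50, 5.39 and 7.72 in dbR. Its fold change in dbdb vs. control was -1.11 ± 0.29 (limma, adjusted p = 0.0203). Hist2h2bb (ENSMUSG00000105827, chr3:96269752-96270132, plus strand), an H2B gene of the Hist2 cluster, was at 17.6, 22.4 and 14.9 FPKM in control, 13.9, 10.9 and 12.1 in dbdb and 16.7, 21.3 and 20.8 in dbR. It changed by -0.56 ± 0.15 in dbdb (limma, adjusted p = 0.0228). The H3 gene Hist1h3c (ENSMUSG00000069310, chr13:23744973-23745602, minus strand) was at 12.96, 7.27 and 7.64 FPKM in control, 4.597, 6.10 and 6.36 in dbdb and 10.6, 11.4 and 8.82 in dbR. Its change in dbdb was -0.66 ± 0.21 (limma, adjusted p = 0.0433). In Hist1h2bn, Hist2h2bb and Hist1h3c the dbdb libraries were the 3 lowest of the 9, and the dbR libraries overlapped with control.

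Hist2h3c1 and Hist2h3c2, H3 genes of the Hist2 cluster, had the largest decreases among the called members. Hist2h3c1 (ENSMUSG00000093769, chr3:96246685-96248504) was at 1.21, 1.63 and 1.82 FPKM in control, 0.748, 0.728 and 0.401 in dbdb and 0.540, 0.460 and 0.408 in dbR, with a log2 fold change of -1.21 ± 0.24 in dbdb vs. control (limma, adjusted p = 0.00482). Hist2h3c2 (ENSMUSG00000081058, chr3:96238108-96239127) was at 0.314, 0.419 and 0.693 FPKM in control, 0.0953, 0.139 and 0.0906 in dbdb and 0.0391, 0.255 and 0.0978 in dbR (-1.42 ± 0.37, limma, adjusted p = 0.0185). These genes are uncertain, because many of their stretches of 150 bases, the read length, are also found in other genes. The share of such stretches is 100% for Hist2h3c1 and 59.4% for Hist2h3c2. The near-identical Hist2h3b, named after its values were seen, was at 26.2, 15.0 and 19.0 FPKM in control, 25.9, 21.8 and 19.7 in dbdb and 27.6, 27.6 and 27.4 in dbR. The sum of the 3 genes was 22.1 ± 5.33 (SD, n = 3) FPKM in control, 23.2 ± 3.27 in dbdb and 28.1 ± 0.219 in dbR, and in control and dbdb it overlapped. Hist2h3b held most of this sum (20.1 ± 5.65 in control), so the overlap cannot show whether reads were divided differently among the copies.

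By p, the first of the upregulated genes was Hist2h2ab (ENSMUSG00000063689, chr3:96219865-96220308, plus strand), an H2A gene with no stretch shared with another gene. It was at 11.2, 9.92 and 12.3 FPKM in control, 20.0, 17.4 and 15.3 in dbdb and 12.7, 16.2 and 13.2 in dbR. All dbdb libraries lay above all control libraries, and the log2 fold change was 0.65 ± 0.12 (limma, adjusted p = 0.00457). Hist1h3f (ENSMUSG00000100210, chr13:23544052-23545312, plus strand), an H3 gene whose transcript runs 365 bases past the stem-loop, was at 10.7, 9.26 and 10.5 FPKM in control, 19.3, 15.5 and 14.7 in dbdb and 16.6, 23.6 and 18.1 in dbR. It was 1.63-fold as high in dbdb as in control (0.69 ± 0.14, limma, adjusted p = 0.00562), and the dbR and dbdb ranges overlapped. Hist1h4h (ENSMUSG00000060981, chr13:23531050-23531519, plus strand), the H4 gene with the second highest level, was at 291, 238 and 329 FPKM in control, 407, 366 and 344 in dbdb and 315, 390.0 and 332 in dbR (0.39 ± 0.13, limma, adjusted p = 0.0443).

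Leaving out 1 library at a time, Hist1h2bc, Hist1h2ab, Hist2h2ab, Hist1h3f and Hist2h3c1 stayed called in dbdb vs. control without any of the 9 libraries, and the other 8 were lost without at least 1 of them. Without dbdb replicate 1 or without dbdb replicate 2, 8 members were called, beside 21.9% and 19.4% of all genes. Without control replicate 1 the split was 8 higher and 5 lower, beside 11.2% and 10.3% of all genes, and the median of the replication-dependent genes came from -0.23 to -0.0069. The median of all members was also -0.0069 without control replicate 1, and it was -0.11 without dbdb replicate 2. In control replicate 1 the 9 blood and erythroid marker genes in the files summed to 110.4 FPKM, against 11.4 and 26.7 in the other control libraries and 13.7 to 25.7 in the db/db libraries; their part in the result was not tested. With mitochondrial genes left out and libraries scaled to the same sum, 18 members were called, 13 higher and 5 lower, beside 24% and 6.67% of all genes. This scaling moved the median of all genes to 0.15, and 26 of the 68 members lay above the median of all genes with either scaling. Since 1 factor per library shifts all genes nearly alike, this count could hardly change and is no check of the result.

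**Figure D2:**
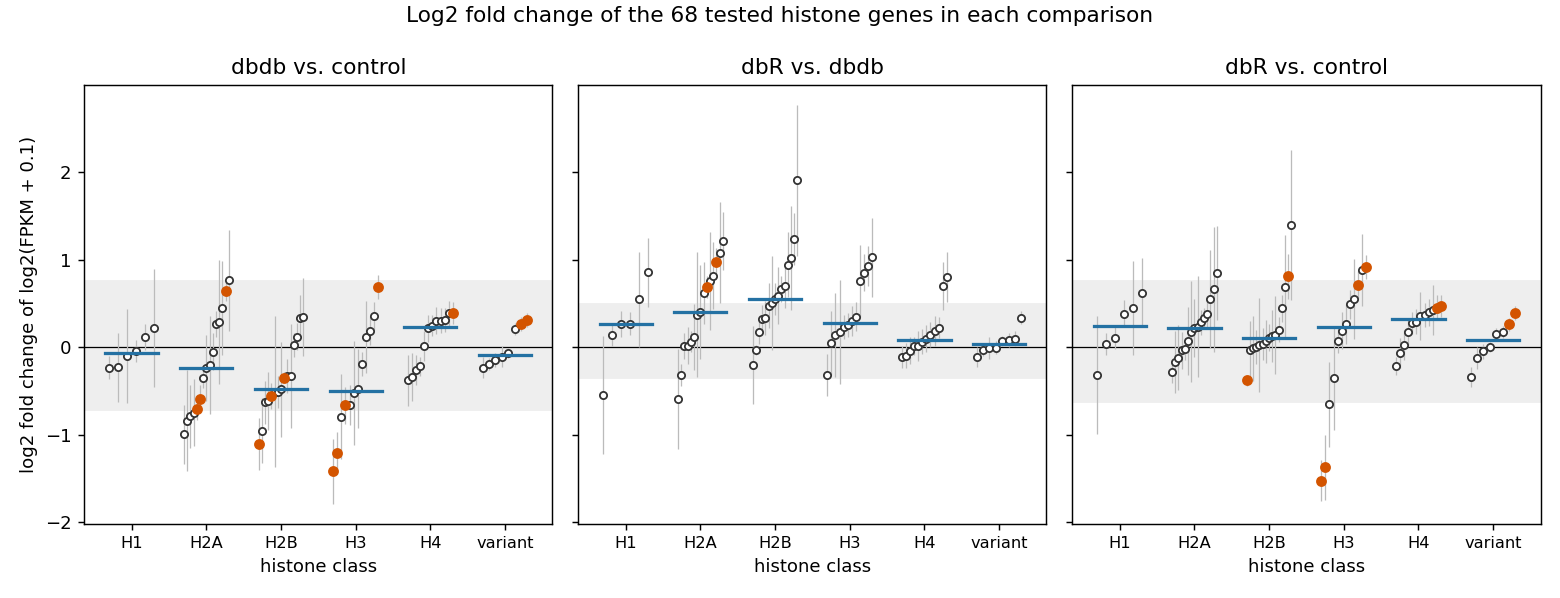
Log2 fold change of log2(FPKM + 0.1) of the 68 tested histone genes in each comparison, by class, with bars for the SE. Filled points were called, lines are class medians and the grey band spans the 5th to 95th percentile of all genes tested. In dbR vs. dbdb, 55 of the 68 genes lie above 0 and 2 are called, and in dbdb vs. control the called points lie on both sides of 0.

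In dbR vs. dbdb, which addresses the effect of rosiglitazone in diabetic mice, most histone genes were higher and few were called. Hist1h2ag and Hist1h2ab, the H2A genes that were lower in dbdb than in control, were upregulated in dbR. They were the 2 members called of 68 (2.94%), beside 0.743% of all genes called and 0.564% called higher. At an unadjusted p under 0.05, 14 members were higher and 1 lower, beside 9.43% and 8.05% of all genes. The fold change was above 0 for 55 of the 68 members and for 7197 of the 14537 genes tested. The 3 dbR libraries all lay above the 3 dbdb libraries for 19 members, beside 10.7% of all genes, and below them for 0 members, beside 11.9%. The median of the members was 0.26, against -0.0022 over all genes, and it came to 0.16 without dbR replicate 2.

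For Hist1h2ag, whose values by library are given above, the mean was 2.21 ± 0.396 FPKM (SD, n = 3) in dbdb and 4.40 ± 0.543 in dbR. The log2 fold change was 0.97 ± 0.16 (limma, adjusted p = 0.0341). For Hist1h2ab the means were 4.94 ± 0.156 in dbdb and 8.03 ± 0.931 in dbR, with a fold change of 0.68 ± 0.12 (limma, adjusted p = 0.0433). These values rested on an estimated 12 to 36.4 fragments per library for Hist1h2ag and 30.5 to 64.1 for Hist1h2ab. Of the stretches of 150 bases in these 2 genes, 65.5% and 45.1% are also found in other genes, so reads could be divided among H2A copies. Each call was lost when any 1 of several libraries was left out, among them dbR replicate 1, dbR replicate 2 and dbdb replicate 1, with adjusted p up to 0.165 for Hist1h2ag and 0.124 for Hist1h2ab (limma). With mitochondrial genes left out and libraries scaled to the same sum, 0 members were called by limma, beside 0.737% of all genes. An unadjusted p under 0.05 was reached by 15 members, beside 18.8% of all genes.

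The next members by p did not pass the test. H2afz was at 97.6, 102 and 102 FPKM in control, 91.3, 89.5 and 83.7 in dbdb and 101, 116 and 119 in dbR. Its lowest values were those of dbdb, and the difference of dbR from dbdb was 0.34 ± 0.07 (limma, adjusted p = 0.0575). Hist2h2bb (0.66 ± 0.15), Hist1h2bn (1.24 ± 0.29) and Hist1h3c (0.85 ± 0.21), with values given above, had adjusted p between 0.0718 and 0.0866 (limma). Hist1h3b, an H3 gene, was at 7.87, 5.54 and 4.64 FPKM in control, 3.07, 3.37 and 4.78 in dbdb and 5.41, 7.94 and 8.24 in dbR, with dbR above dbdb in every library.

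Hist1h2af, an H2A gene, was at 8.70, 4.76 and 6.21 FPKM in control, 1.96, 3.79 and 4.13 in dbdb and 4.87, 10.4 and 8.06 in dbR. Its dbdb libraries were the 3 lowest. Hist1h2bj, the H2B partner of Hist1h2ag across the promoter printed above, was at 7.53, 7.14 and 4.42 FPKM in control, 3.95, 4.50 and 4.53 in dbdb and 7.05, 6.70 and 5.48 in dbR. It also lay above the dbdb range in every dbR library, with a difference of 0.55 ± 0.18 that did not pass the test (limma, adjusted p = 0.169). Hist1h2bb, an H2B gene, was at 20.2, 18.1 and 13.5 FPKM in control, 7.25, 12.5 and 14.5 in dbdb and 17.9, 21.5 and 14.7 in dbR.

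In 7 genes the dbdb libraries lay below every control library and also below every dbR library, as did 4.26% of all genes tested. They were Hist1h2ab, Hist1h2af, Hist1h2ag, Hist1h2bn, Hist2h2bb, Hist1h3c and the variant H2afz. Both comparisons share the dbdb libraries, so a low dbdb value enters both. The other members with dbR above dbdb in every library were Hist1h1a, Hist1h2bb, Hist1h2bh, Hist1h2bj, Hist1h2bl, Hist1h3b, Hist1h3d, Hist1h3e, Hist2h3b, Hist1h4j, Hist1h4k and the macroH2A gene H2afy.

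**Figure D3:**
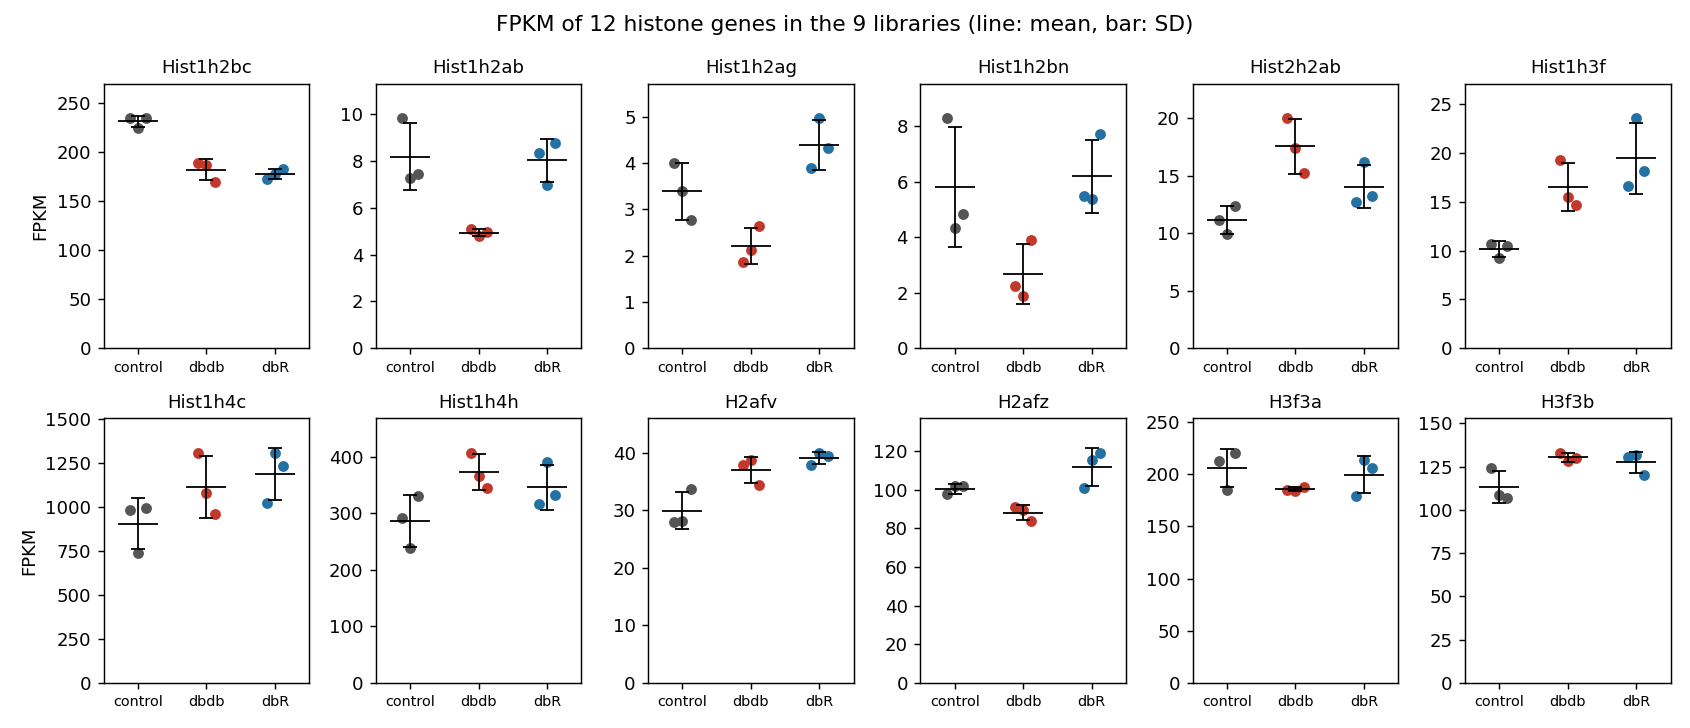
FPKM of 12 histone genes in the 3 libraries of each group, with the mean as a line and the SD as a bar. Hist1h2bc is lower in both db/db groups (169 to 189 FPKM) than in control (225 to 234), whereas Hist1h2ab and Hist1h2ag are lowest in dbdb.

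The low and the abundant replication-dependent genes had different medians. The limit of 20 FPKM used here was chosen after the values were seen, so no test is given. The 49 tested replication-dependent genes with a mean under 20 FPKM had a median log2 fold change of -0.33 for dbdb vs. control. For dbR vs. dbdb it was 0.47, and 34 of them were below 0 in the first and 43 above 0 in the second. The 11 genes of at least 20 FPKM had medians of 0.25 and 0.10, which with 1 library left out lay between 0.13 and 0.31 and between -0.0055 and 0.20. The second turned below 0 without dbdb replicate 3. Without control replicate 1, the median of the 49 low genes in dbdb vs. control was -0.16, and over all omissions of 1 library it lay between -0.54 and -0.16. For dbR vs. dbdb the range was 0.33 to 0.53.

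The medians also differed by shared sequence and by the 3′ end. Tested members with at least 50% of their 150-base stretches shared with another gene (18) had a median of -0.33 for dbdb vs. control, and 0.44 for dbR vs. dbdb. Members with 10 to 50% shared (26) had medians of -0.48 and 0.53, and those with under 10% shared (24) had 0.12 and 0.068. In dbdb vs. control, 0 of these 24, 5 of the 26 and 3 of the 18 were called lower, beside 13.4% of all genes. Called higher were 3, 2 and 0, beside 13.1%. In dbR vs. dbdb 0, 1 and 1 were called, beside 0.743%. The part of shared sequence in these values was not tested. By the 3′ end, genes whose transcript ends within 100 bases of the stem-loop (18 tested) had medians of -0.41 and 0.45. Those that run further past it (22 tested) had -0.08 and 0.14, and those with under 20 bases of annotated 3′ UTR (15 tested) had -0.33 and 0.66. The 13 tested genes with no stem-loop in a longer 3′ UTR had -0.07 and 0.10. The called genes of dbR vs. dbdb, Hist1h2ab and Hist1h2ag, both end within 100 bases of the stem-loop.

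Other short mRNAs also had a median above 0 in dbR vs. dbdb. Of 526 other genes with transcripts under 800 bases, 376 had a fold change above 0 and the median was 0.13. Among them 3 were called higher and 3 lower, beside 0.564% and 0.179% of all genes. Among the 82 genes of cytosolic ribosomal proteins, 80 were above 0 with a median of 0.29. Of the 82, 2 were called, both higher (2.44%, beside 0.564% of all genes called higher). The part of this shift in the histone values was not tested.

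In dbR vs. control, which compares treated diabetic mice with non-diabetic mice, H3 and H4 genes and variants were among the higher genes and H2B and H3 genes among the lower. Hist1h3f, H2afv, Hist1h3e, Hist1h4a, H2afy2, Hist1h4d and Hist1h2bh were upregulated and Hist2h3c1, Hist1h2bc and Hist2h3c2 downregulated. That was 10 of 68 members (14.7%), beside 24.1% of all genes. This comparison shares the control libraries with the first and the dbR libraries with the second. The median of the members was 0.17 against -0.0014 over all genes, and it came to 0.30 without control replicate 1 and to 0.11 without control replicate 3.

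Hist1h3f had the smallest p, with 10.2 ± 0.779 FPKM (SD, n = 3) in control and 19.5 ± 3.65 in dbR (0.92 ± 0.14, limma, adjusted p = 0.00131). Hist1h2bc, at 231 ± 5.53 in control and 177 ± 4.76 in dbR, differed by -0.38 ± 0.06 (limma, adjusted p = 0.00165), while dbR vs. dbdb gave -0.03 ± 0.06. Hist2h3c1 differed by -1.53 ± 0.24 (limma, adjusted p = 0.00149) and Hist2h3c2 by -1.37 ± 0.37 (limma, adjusted p = 0.0228), with the shared sequence given above.

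Hist1h3e (ENSMUSG00000069273, chr13:23561534-23562369, minus strand), an H3 gene, was at 12.1, 7.62 and 11.1 FPKM in control, 12.8, 13.9 and 12.2 in dbdb and 16.4, 19.0 and 14.5 in dbR. The groups stood in this order without overlap, and the difference of dbR from control was 0.71 ± 0.16 (limma, adjusted p = 0.0107). Hist1h4a (ENSMUSG00000060093, chr13:23760692-23761230, minus strand) was at 19.5, 22.7 and 22.2 FPKM in control, 24.6, 21.3 and 31.4 in dbdb and 29.9, 30.3 and 28.9 in dbR (0.47 ± 0.12 in dbR vs. control, limma, adjusted p = 0.0197). Hist1h4d (ENSMUSG00000061482, chr13:23581598-23582735, plus strand), an H4 gene with no stretch shared, was at 189, 130 and 153 FPKM in control, 210.0, 189 and 181 in dbdb and 179, 241 and 224 in dbR. Its control and dbR ranges overlapped, and it passed with 0.45 ± 0.14 (limma, adjusted p = 0.0430).

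Hist1h2bh (ENSMUSG00000064168, chr13:21809791-21810171, minus strand), an H2B gene all of whose stretches of 150 bases occur in other genes, was at 3.56, 1.46 and 1.84 FPKM in control, 2.64, 3.07 and 2.47 in dbdb and 4.19, 3.73 and 3.53 in dbR (0.81 ± 0.26 in dbR vs. control, limma, adjusted p = 0.0452). The dbR libraries lay above control for 11 members, beside 20.8% of all genes, and below for 5, beside 21.1%. Hist1h3f, Hist1h3e, H2afv, Hist1h2bc and Hist2h3c1 stayed called without any of the 9 libraries, and 6 members were called without control replicate 3 or without dbR replicate 3, where 17% and 18.6% of all genes were called. With mitochondrial genes left out and libraries scaled to the same sum, 19 were called, 16 higher and 3 lower, beside 16.5% and 6.93% of all genes. With scaling to the 75th percentile 16 were called, 13 higher and 3 lower, beside 15.2% and 9.19%. With each of these scalings and without, 50 members lay above the median of all genes, a count that 1 factor per library could hardly change.

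The linker histone genes did not pass the test in any comparison. Hist1h1c was at 115, 96.3 and 119 FPKM in control, 108, 93.7 and 80.5 in dbdb and 109, 130.4 and 99.9 in dbR. Hist1h1e was at 109.9, 95.2 and 103, at 118, 99.7 and 83.9, and at 109, 125 and 98.1 in the same order of groups. For both, the ranges of every pair of groups overlapped. H1f0, the linker histone gene of resting cells that the rule leaves out, was at 59.9 to 70.5 FPKM in control, 69.7 to 76.6 in dbdb and 78.1 to 81.5 in dbR (0.33 ± 0.07 in dbR vs. control, limma, adjusted p = 0.00824).

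Among the other abundant replication-dependent genes, Hist1h4c differed by 0.30 ± 0.15 in dbdb vs. control (limma, adjusted p = 0.179) and by 0.40 ± 0.15 in dbR vs. control (limma, adjusted p = 0.0887). The H4 gene Hist1h4b stood at 86.96, 58.3 and 82.4 FPKM in control, 89.1, 72.3 and 66.5 in dbdb and 62.97, 83.3 and 84.5 in dbR. The H2A gene Hist2h2ac was at 65.4, 51.5 and 70.6, at 86.4, 70.9 and 67.6, and at 64.2, 88.9 and 75.1 in the same order of groups. The ranges of both genes overlapped between all groups.

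The fold changes of the variant genes lay within -0.34 and 0.39 in the 3 comparisons, and those of the replication-dependent genes within -1.53 and 1.91. The latter ends were set by low genes, Hist2h3c1 (mean 0.882 FPKM) and Hist1h2bl (mean 0.594 FPKM). The 11 replication-dependent genes of at least 20 FPKM lay within -0.38 and 0.49, much as the variants did. Of the 8 variant genes tested, H2afv and H2afy2 were called, both higher in dbdb and in dbR than in control (25%, beside 26.4% and 24.1% of all genes). In dbR vs. dbdb 0 were called by limma, beside 0.743% of all genes. At an unadjusted p under 0.05, 1 was higher and 0 lower there, beside 9.43% and 8.05% of all genes. H2afv (ENSMUSG00000041126, chr11:6428138-6444352, minus strand), a gene of the H2A.Z family, was at 28.0, 28.2 and 33.6 FPKM in control, 37.8, 38.8 and 34.4 in dbdb and 37.9, 40.0 and 39.3 in dbR. Its log2 fold change was 0.31 ± 0.08 in dbdb vs. control (limma, adjusted p = 0.0181) and 0.39 ± 0.08 in dbR vs. control (limma, adjusted p = 0.00650). By transcript, the main form of H2afv was at 15.97 ± 2.87 FPKM (SD, n = 3) in control, 21.05 ± 2.16 in dbdb and 24.3 ± 1.42 in dbR, while the other stood at 13.95 ± 0.452, 15.96 ± 1.35 and 14.7 ± 0.496.

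H2afy2 (ENSMUSG00000020086, chr10:61738665-61784147, minus strand), which encodes macroH2A2, was at 4.58, 4.25 and 4.29 FPKM in control, 4.92, 5.57 and 5.34 in dbdb and 5.40, 5.22 and 5.15 in dbR. Both db/db groups lay above control (0.26 ± 0.08 in dbdb vs. control, limma, adjusted p = 0.0327). H2afy, the gene of macroH2A1, was at 30.5, 28.4 and 28.1 FPKM in control, 26.8, 28.6 and 27.5 in dbdb and 28.9, 29.2 and 29.0 in dbR. Its 3 dbR libraries lay above the 3 dbdb libraries with a difference of 0.07 ± 0.05 that did not pass.

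The H3.3 genes H3f3a and H3f3b encode the same protein from different mRNAs. H3f3a was at 213, 185 and 221 FPKM in control, 185, 184 and 188 in dbdb and 179, 214 and 206 in dbR, and these ranges overlapped. H3f3b was at 124, 109 and 107 FPKM in control, 133, 128 and 129.9 in dbdb and 130.4, 132 and 120.2 in dbR. Each dbdb library of H3f3b lay above each control library, with a difference of 0.20 ± 0.07 at the edge of the threshold and not called (limma, adjusted p = 0.05003). The sum of both genes was 319 ± 22.5 FPKM (SD, n = 3) in control, 316 ± 3.30 in dbdb and 327 ± 17.7 in dbR.

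H2afz and H2afv are the genes of H2A.Z and differed from each other across the groups. H2afz was lowest in dbdb (88.2 ± 3.998 FPKM) and highest in dbR (112 ± 9.76), whereas H2afv was lowest in control. H2afx, the damage-signalling variant and the only variant gene with the stem-loop, was at 9.39, 7.88 and 6.67 FPKM in control, 7.34, 6.84 and 7.85 in dbdb and 7.06, 6.71 and 8.11 in dbR. The ranges of the groups overlapped. H2afj was at 92.2, 81.1 and 106 FPKM in control, 86.2, 81.7 and 68.9 in dbdb and 65.0, 79.4 and 74.8 in dbR, with every dbR library below control (-0.34 ± 0.12, limma, adjusted p = 0.0569).

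The FPKM of each class was summed per library. Summed H2B was 325, 304 and 300.5 FPKM in control, 236, 244 and 235 in dbdb and 253, 274 and 266 in dbR, and the 3 groups did not overlap. Hist1h2bc made up most of it. Summed H4 was 1528 ± 235 FPKM (SD, n = 3) in control, 1867 ± 234 in dbdb and 1947 ± 236 in dbR, and both db/db groups lay above control. By library it was 1663.3, 1256.4 and 1664.9 in control, 2123, 1811 and 1665.6 in dbdb and 1693, 2160 and 1988 in dbR. The control and dbdb ranges thus nearly touched. Summed H3 was 78.0 ± 17.6, 78.2 ± 3.32 and 103 ± 7.09, with dbR above both others. Its lowest dbR library, at 98.50, was close to the highest control library, at 98.27. H1, H2A and the variants overlapped in every comparison.

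**Figure D4:**
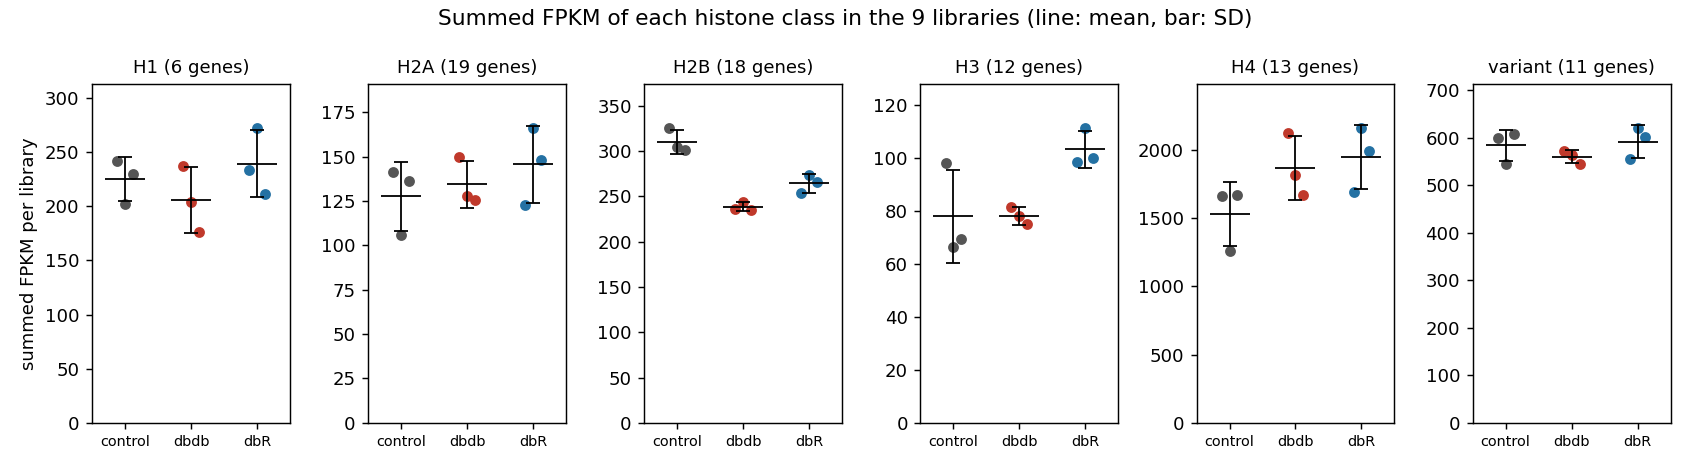
Summed FPKM of each histone class in the 3 libraries of each group, with the mean as a line and the SD as a bar. H2B lies at 300.5 to 325 FPKM in control and 235 to 244 in dbdb. H4 lies above control in both db/db groups, by 1665.6 against 1664.9 FPKM at the closest. H3 is highest in dbR, by 98.50 against 98.27 at the closest.

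All replication-dependent genes together were at 2268 ± 291 FPKM in control, 2523 ± 280.0 in dbdb and 2699 ± 291 in dbR, and the variant genes at 584 ± 33.4, 560.5 ± 13.6 and 592 ± 34.1. Both sums overlapped between all groups. Without Hist1h4c the replication-dependent sum was 1361 ± 149, 1407 ± 104 and 1508 ± 151. In each library the variants held 16.8% to 22% of the histone FPKM.

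Head-to-head pairs were also read by sign. Of the 10 pairs with both genes tested, both genes were above 0 in 1 pair and below 0 in 7 for dbdb vs. control, where 26 of the 68 members were above 0. For dbR vs. dbdb both were above 0 in 9 pairs and below 0 in 0, where 55 members were above 0. For dbR vs. control both were above 0 in 4 pairs and below 0 in 1, where 49 members were above 0.

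Genes that work with histones were read from lists. Of 42 S phase and proliferation genes, 3 were called higher and 4 lower in dbdb vs. control (16.7%, beside 26.4% of all genes, median -0.010). In dbR vs. dbdb 0 were called by limma, beside 0.743% of all genes, with a median of 0.18. At an unadjusted p under 0.05, 10 were higher and 0 lower there, beside 9.43% and 8.05% of all genes. In dbR vs. control 3 were called higher and 2 lower (11.9%, beside 24.1%). Pcna, the sliding clamp of DNA polymerase, was at 23.8 to 25.3 FPKM in control, 22.9 to 25.8 in dbdb and 25.6 to 29.2 in dbR. The sum of the 42 genes was 141 to 149 FPKM in control, 134.5 to 148 in dbdb and 153 to 159 in dbR. The dbR libraries thus lay above both other groups.

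Of 23 tested genes of the 3′ end processing of histone mRNAs, 6 were called lower and 0 higher in dbdb vs. control, beside 13.4% of all genes called lower. They were Lsm10, a subunit of the U7 particle (-0.65), the cap-binding genes Ncbp1 (-0.53) and Ncbp2 (-0.38), Snrpd3 (-0.42), Eri1, the exonuclease that trims the stem-loop end (-0.26), and Nono (-0.22). They were named after their values were seen. Slbp was at -0.20 and did not pass (limma, adjusted p = 0.192). In dbR vs. dbdb 0 of the 23 genes were called by limma, beside 0.743% of all genes. At an unadjusted p under 0.05, 2 were higher and 0 lower, beside 9.43% and 8.05% of all genes.

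Of 34 histone chaperone genes, 1 was called higher and 3 lower in dbdb vs. control (11.8%, beside the same 26.4%). Anp32e, a chaperone of H2A.Z, was higher (0.24), and Npm3 (-1.51), Nap1l1 (-0.66) and Rbbp4 (-0.39) were lower, as named after their values were seen. Nap1l1, a chaperone of H2A and H2B, was at 95.3, 95.1 and 90.3 FPKM in control, 57.2, 59.1 and 61.6 in dbdb and 67.5, 67.6 and 70.2 in dbR. Npm1 was the 1 chaperone gene called in dbR vs. dbdb (2.94%, beside 0.743% of all genes). It was at 136 to 166 FPKM in dbdb and 189 to 223 in dbR (0.52 ± 0.10, limma, adjusted p = 0.0445).

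Markers of leukocytes had a median below 0 in dbdb vs. control, as had the low histone genes. Of 16 tested markers 8 were called lower and 1 higher in dbdb vs. control (median -0.98), beside 13.4% and 13.1% of all genes. In dbR vs. dbdb all 16 were above 0 (median 0.39) with 0 called by limma, beside 0.743% of all genes. At an unadjusted p under 0.05, 5 were higher there, beside 9.43% of all genes. The 20 marker entries in the files summed to 50.8 to 61.8 FPKM in control, 29.1 to 45.3 in dbdb and 36.8 to 49.6 in dbR. The macrophage marker C1qa was at 14.2 to 16.2 FPKM in control, 7.85 to 14.6 in dbdb and 9.42 to 14.7 in dbR. Ly6g, a neutrophil marker, was listed at 0 in 7 libraries, and Ms4a1 and Cd79a, markers of B cells, in 1 each. The 14 kidney cortex markers summed to 3051 to 3442 FPKM in control, 3683 to 4002 in dbdb and 3669 to 3837 in dbR. The part of these cells in the histone values was not tested.

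**Figure D5:**
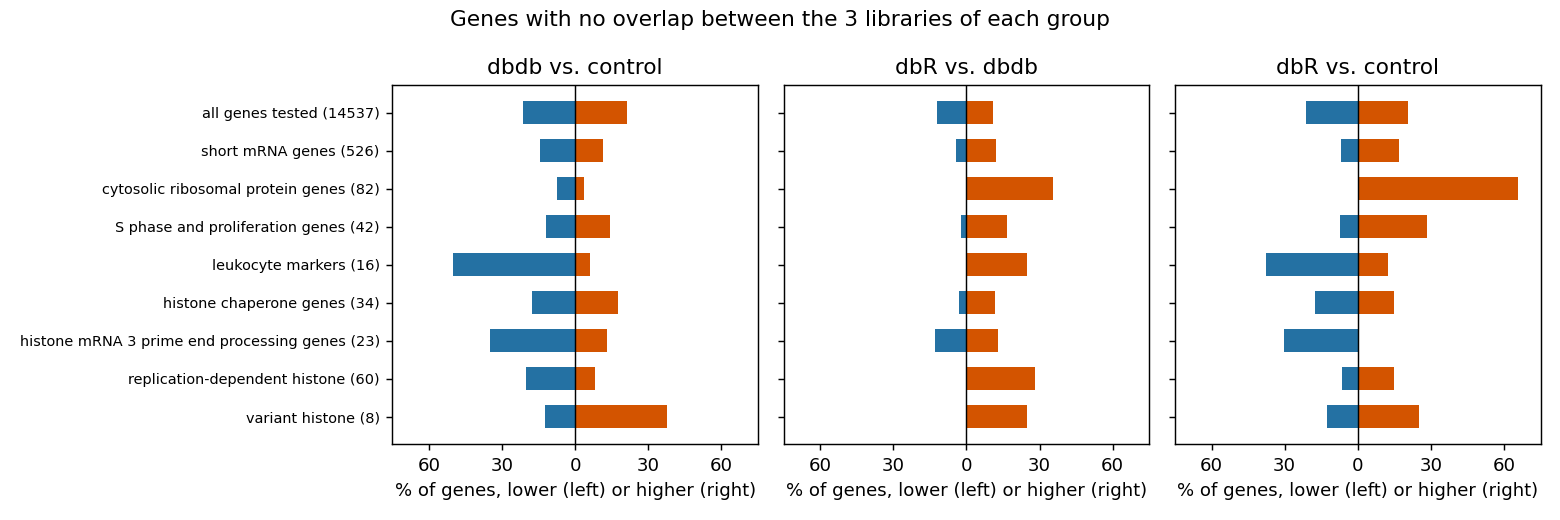
Share of genes in each list whose 3 libraries in the first group of the comparison all lie above (orange, right) or below (blue, left) the 3 of the second, with the number of genes tested in brackets. In dbR vs. dbdb, 17 of 60 replication-dependent genes and 29 of 82 ribosomal protein genes lie above and 0 of either below, beside 10.7% and 11.9% of all genes.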

How the data were processed

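Strand-specific RNA-seq of kidney cortex was analysed in 9 mice, 3 per group, assigned to control, dbdb or dbR by the sample titles. Ribosomal RNA had been removed before library construction. The authors aligned the read pairs of 150 bases to GRCm38.p2 with TopHat2 2.0.9 and deposited the FPKM of each transcript from Cufflinks 2.1.1. FPKM is divided by transcript length and by mapped fragments, and rests on how Cufflinks divided reads among transcripts and near-identical histone copies. The lncRNA files were not used here.

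FPKM was summed per gene, and genes with a mean of at least 0.1 over the 9 libraries were fitted as log2(FPKM + 0.1) by limma 3.58.1 (R 4.3.3) with a trend, all 3 groups in 1 model. Tests are two-sided with Benjamini-Hochberg adjustment over 14537 genes, and calls need an adjusted p under 0.05. The fit was tested on simulated data. Mice were the replicates. No read counts were used, so depth was estimated from FPKM steps of transcripts of 1200 to 8000 bases. Sequences came from GENCODE M21 and RefSeq, where 70 of 79 genes matched by Entrez ID. Python 3.11.15, numpy 2.4.6, pandas 2.3.3 and matplotlib 3.10.9 were used. The alternatives were other pseudocounts, filters, scalings, sample sets and fits, FPKM per transcript and each library left out.

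The members and gene lists were chosen with earlier results of these data known. Values in every library were given for members called in any comparison, the 10 smallest p per comparison, tested variants and the 8 most abundant replication-dependent genes. Of other lists, up to 3 genes of highest FPKM were named by rule, and called genes of the 3′ end processing and chaperone lists, Slbp and markers at 0 were named after their values were seen.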

Additional observations from a re-analysis of the deposited data

How the results depend on the processing

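No member that was called or among the 10 smallest p of a comparison changed the sign of its fold change there under the alternatives fitted per gene or with any 1 library left out. Fits with the replicate block, without a trend, on the 6 libraries alone or without a library outside the comparison left the fold change unchanged. These members were also picked for small p in the same data, so their sign was unlikely to turn. Fold changes per transcript were not compared this way. Of these values, 514 stayed on the same side of the threshold, 104 lost a call and 5 gained one. In dbdb vs. control, 13 members were called, and the number came to 20 with quantile normalization and to 5 with FPKM per transcript, beside 26.4% and 25.6% of all genes and 9.57% of all transcripts. In dbR vs. dbdb, the 2 calls became 0 without a filter, with mitochondrial genes left out, without a trend, with the replicate block and with FPKM per transcript. They became 1 with the 6 libraries of the comparison alone. Over all genes 0.743% were called in the main fit, and 0.176%, 0.737%, 0.124% and 0.158% in the first 4 of these. With FPKM per transcript 0.017% of all transcripts were called, and with the 6 libraries 0.249% of all genes. In dbR vs. control, 10 calls became 16 with scaling to the 75th percentile, 19 with mitochondrial genes left out and 5 with FPKM per transcript (24.1%, 24.4% and 23.5% of all genes and 8.5% of all transcripts). Leaving out 1 library gave 8 to 16 calls in dbdb vs. control, 0 to 3 in dbR vs. dbdb and 6 to 14 in dbR vs. control, beside 19 to 26.4%, 0.0138 to 0.971% and 17 to 24.6% of all genes. Where calls were lost, the cause was not tested. The ratio of the summed variant genes in dbdb vs. control, 0.959, came to 1.03 with quantile normalization and 1.07 with mitochondrial genes left out. Replicate numbers did not pair the mice (same-number correlations of deviations from -0.175 to 0.0615). The replicate block gave 10, 0 and 9 calls in the 3 comparisons, beside 23%, 0.158% and 20.8% of all genes. Counts of members without overlap were also taken under other scalings, chosen after seeing the data, and came with mitochondrial genes left out to 16 above and 6 below in dbdb vs. control (36.7% and 10% of all genes), against 8 and 13, to 14 and 2 in dbR vs. dbdb (7.53% and 16.3%), against 19 and 0, and to 18 and 4 in dbR vs. control (27.8% and 12.7%), against 11 and 5. Under this scaling 26, 55 and 50 members lay above the median of all genes, the same numbers as without it. Since 1 factor per library shifts all genes nearly alike, these numbers could hardly change and are no check of the results. Genes under 1 FPKM rest on few fragments, such as an estimated 1 to 16 for Hist2h3c2.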
